A study of Mus musculus with 12 samples.

Results

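*Gpr15* and 8 chemokine receptor genes (*Ccr4*, *Ccr6*, *Ccr7*, *Ccr8*, *Cxcr3*, *Cxcr4*, *Cxcr5*, and *Cxcr6*) were followed in Th9 cells cultured with vehicle, EpA, fatostatin, or the combination. The 9 genes are members of a hand-made list, chosen by symbol from 32051 genes with earlier results of these data known. *Gpr15* was placed on it because of its low level with fatostatin. Its values in every comparison that involves fatostatin are therefore given as a description without a test. All 9 passed the filter on low values (0.1 FPKM or more on average across libraries; FPKM are reads scaled by gene length and library size).

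Naive CD4+ T cells from mouse spleens were polarized in culture to Th9 cells, which are IL-9–producing helper T cells. All 4 groups received 10 ng/mL IL-4, 1 ng/mL TGF-β, blocking antibodies to IL-12 and IFN-γ, and stimulation through CD3 and CD28. The DMSO group received vehicle, the EpA group 10 μM EpA (endomelipeptide A, a cyclic lipopeptide from a fungus), the fatostatin group 5 μM fatostatin (an inhibitor of the SREBP transcription factors of lipid synthesis), and the last group the combination. Libraries were made from RNA of day 4, 3 for each group. The labels do not say whether these came from separate mice or cultures, so p-values measure the spread between these libraries, which may be technical. The study's methods name C57BL/6J or OT-II mice as spleen donors, without saying which gave these libraries. They give an age of 6 to 8 weeks for the mice. Cells polarized in culture met neither the tissues nor the gradients that these receptors read, and RNA gives no surface level of a receptor.

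The 12 libraries held 36607240 to 44375809 reads. The 6 markers of CD4+ T cells were present in every group, and of the Th9 markers *Irf4* was the highest without EpA and *Il9* the highest with it. The Th9 marker *Spi1* rested on 0 to 18 reads per library. With EpA against DMSO, 3 of the 5 tested Th9 markers were higher and 2 lower (limma adjusted p below 0.05), beside 14.3% and 13.1% of all genes. Among markers of other cells, summed levels were 5.20 to 8.68 FPKM for 5 B cell genes, 6.98 to 10.2 FPKM for 2 CD8 genes, 0.339 to 0.904 FPKM for 6 myeloid genes, and 1.25 to 2.51 FPKM for 7 granulocyte and mast cell genes. The list for NK and γδ T cells summed to more, 18.4 to 35.0 FPKM over the 3 of its 4 genes in the table, and was led by *Trgv2*, a variable segment of the T cell receptor γ chain. *Elane* and *Mpo* were at 0 in all DMSO libraries, *Elane* also in all EpA libraries, and *Fcgr1* in all EpA libraries. In bulk RNA, fewer cells of a type and less RNA per cell cannot be told apart.

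Chemokine receptors couple to inhibitory G proteins and steer migrating cells along gradients of small secreted proteins. Helper T cell subsets carry different sets of them: CCR4 and CCR8 are known from type 2 and regulatory T cells, CXCR3 from type 1 cells, CCR6 from Th17 cells, and CXCR5 from follicular helper cells. CCR7 guides naive and memory cells into lymph nodes, CXCR4 responds to CXCL12 of the stroma, CXCR6 to membrane-bound CXCL16 in tissues, and GPR15 directs T cells to the large intestine. *Gpr15* is a known target gene of the aryl hydrocarbon receptor (AhR), and *Cxcr3* of the T-box factor T-bet.

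Start-site sequences are shown for the 3 members that moved most, *Gpr15*, *Cxcr3*, and *Cxcr6*, because the latter pair fell together with EpA while *Gpr15* rose. They come from RefSeq (GRCm38.p6), run 5′ to 3′ on the gene's strand, and are cut to the bases before both the RefSeq and the GENCODE start of each gene. The *Gpr15* stretch is chr16:58719071-58719122 (minus strand), the *Cxcr3* stretch chrX:101734270-101734397 (minus strand), and the *Cxcr6* stretch chr9:123806227-123806474 (plus strand). Capitals in *Cxcr3* mark the T-box core TCACAC.
Gpr15: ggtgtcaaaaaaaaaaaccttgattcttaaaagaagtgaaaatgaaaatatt
Cxcr3: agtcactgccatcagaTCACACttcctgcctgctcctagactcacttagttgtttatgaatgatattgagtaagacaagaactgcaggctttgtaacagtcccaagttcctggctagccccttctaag
Cxcr6: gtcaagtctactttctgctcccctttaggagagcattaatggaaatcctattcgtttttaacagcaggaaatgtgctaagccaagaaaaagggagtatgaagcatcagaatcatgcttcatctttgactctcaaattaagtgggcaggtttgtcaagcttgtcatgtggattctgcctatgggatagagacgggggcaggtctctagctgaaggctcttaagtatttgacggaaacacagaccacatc

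RefSeq start-site entries were matched for 7 of the 9 members, and *Ccr7* and *Cxcr5* are named only. In the 250 bases before each RefSeq start, read on both strands, the T-box core TCACAC occurred in *Cxcr3* alone among the matched members and in 12.3% of 32851 promoters. The AhR core GCGTG occurred in *Ccr8*, *Cxcr3*, and *Cxcr4* and in 28.2% of promoters, and was not among the letters of the *Gpr15* window. The sterol regulatory element TCACNCCAC, which contains the T-box core TCACAC where N is A, occurred in no matched member and in 1.05% of promoters.

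Read per length, the receptors formed 3 tiers of abundance. *Ccr7*, *Ccr4*, and *Ccr8* ranked 178, 200, and 206 among all genes by mean FPKM, with means of 209, 186, and 181 FPKM over the 12 libraries. Together they made up 90.5% to 92.4% of the summed FPKM of the 9 genes, which itself lay between 614 and 661. *Cxcr4* followed at 38.6 FPKM. *Gpr15* (4.98 FPKM), *Cxcr3* (4.90 FPKM), *Cxcr6* (4.45 FPKM), and *Ccr6* (2.13 FPKM) formed the third tier, and *Cxcr5* lay near the limit of detection at 0.140 FPKM. From the lowest to the highest library, *Gpr15* spanned 9.58-fold, *Cxcr5* 4.52-fold on 6 to 30 reads, *Cxcr3* 3.61-fold, *Cxcr6* 2.74-fold, *Ccr6* 1.95-fold, and *Ccr4* 1.03-fold.

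**Figure D1:**
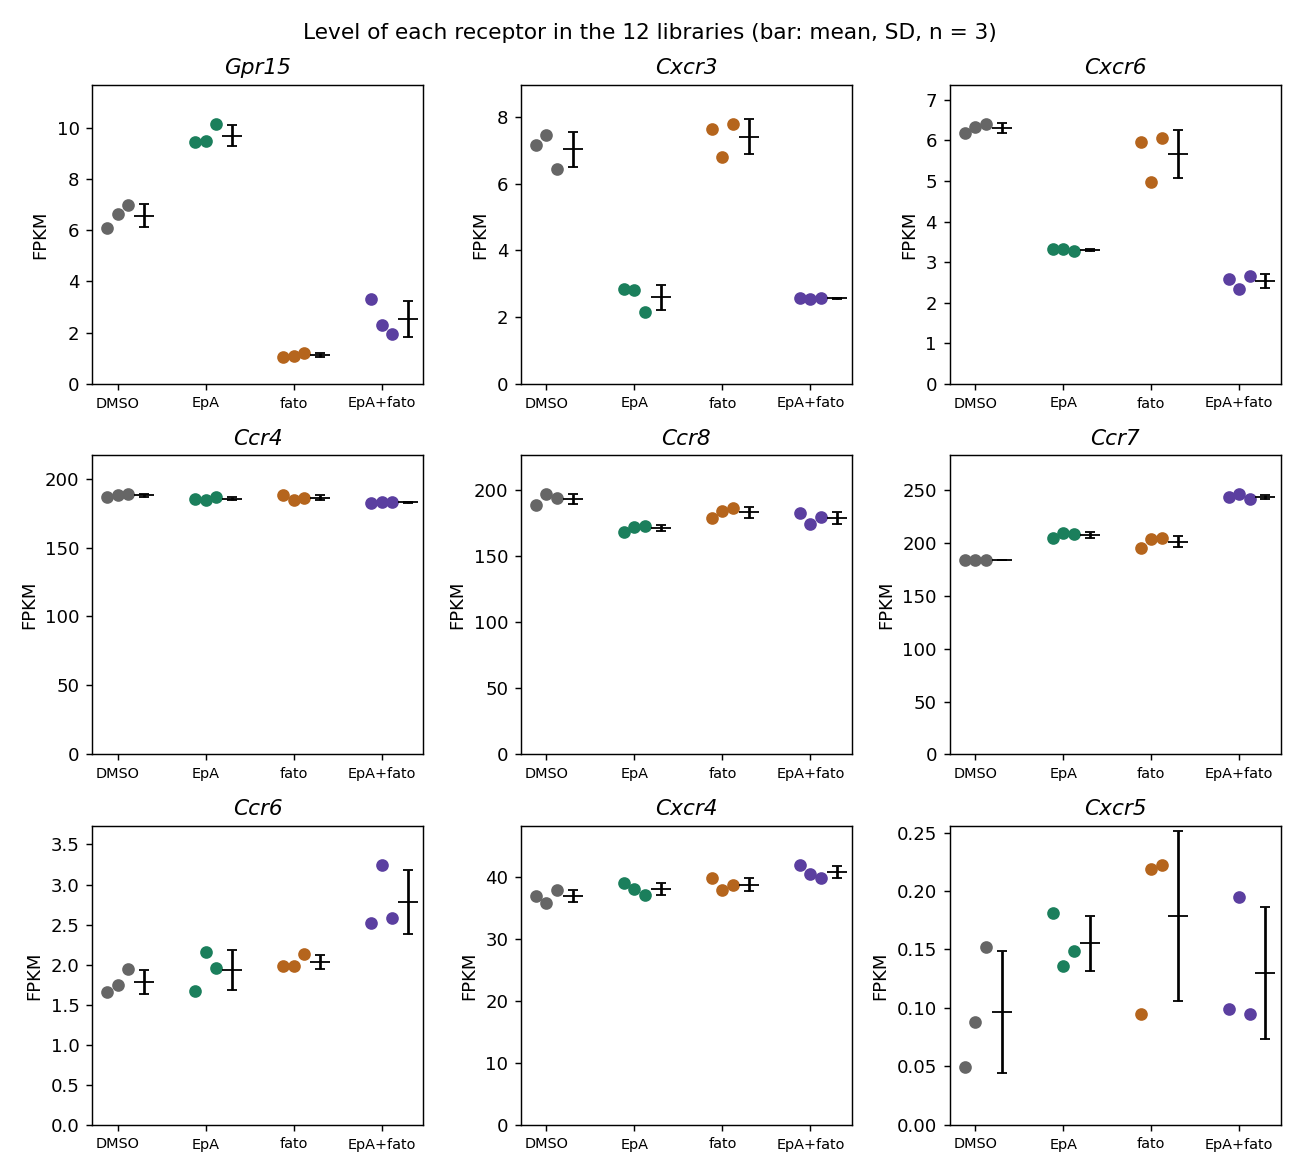
FPKM of each of the 9 genes (vertical axes from 0) in the 12 libraries by group; points are libraries and the bar beside them gives the mean and SD of 3. *Gpr15* lay between 1.06 and 1.21 FPKM with fatostatin and between 9.45 and 10.2 FPKM with EpA, *Cxcr3* and *Cxcr6* were low in both groups with EpA, and *Ccr4* stayed between 182 and 188 FPKM.

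*Gpr15*, the gut-homing receptor, was the member with the widest range, rising with EpA and lying lowest with fatostatin. Its levels were 6.10, 6.62, and 6.99 FPKM in the DMSO libraries and 9.45, 9.48, and 10.2 FPKM in the EpA libraries. With fatostatin they were 1.06, 1.09, and 1.21 FPKM, and with both compounds 3.30, 2.31, and 1.95 FPKM. No 2 groups overlapped, and the order of the means was fatostatin, both compounds, DMSO, EpA. Between 71 and 704 reads per library stood behind these values.

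EpA raised *Gpr15* in the absence of fatostatin. The mean went from 6.57 ± 0.446 to 9.70 ± 0.394 FPKM (SD, n = 3). On the log2 scale this was 0.56 ± 0.14 (SE), with limma adjusted p = 0.0137. The call was lost with 1 library left out: without DMSO replicate 1 the adjusted p was 0.0513 at a log2 fold change of 0.50, and over 14 alternatives the fold change ran from 0.499 to 0.601. The DMSO libraries also entered the change by which *Gpr15* was chosen. In the presence of fatostatin the mean went from 1.12 ± 0.0777 to 2.52 ± 0.701 FPKM (SD, n = 3), or 2.26-fold. The log2 difference of 1.08 ± 0.14 (SE) is given without a test, because it starts from the low fatostatin libraries that placed the gene on the list.

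The change that placed *Gpr15* on the list is given without a test. Mean FPKM with fatostatin was 5.88-fold lower than with DMSO, and the log2 fold change was -2.45 ± 0.14 (SE), with a range of -2.56 (voom on recovered reads) to -1.84 (pseudocount of 1) over 14 alternatives. Added to EpA, fatostatin went with a 3.85-fold lower mean than EpA alone and a log2 fold change of -1.94 ± 0.14 (SE), which ran from -2.14 without replicate 1 of both compounds to -1.62 with a pseudocount of 1 over 14 alternatives. On the log2 scale the effect of EpA was 0.52 ± 0.20 (SE) larger with fatostatin than without, again as a description. This difference ran from 0.216 with a pseudocount of 1 to 0.679 without replicate 3 of both compounds over 19 alternatives, and it was 0.314 without their replicate 1.

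*Gpr15* (chr16:58717433-58719070, minus strand, a single exon of 1638 bases) shares 204 bases of exon with *Cpox*, the coproporphyrinogen oxidase gene of heme synthesis, which runs on the opposite strand (chr16:58670292-58717636). *Cldnd1*, which encodes a claudin-domain membrane protein, starts 8839 bases beyond the far end of *Gpr15*. Whether reads were counted by strand is not given in the sources used here, so reads in the shared bases cannot be assigned to *Gpr15* or *Cpox* with certainty, and both genes were named after their values were seen.

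Both neighbors followed the same order of groups as *Gpr15*, with smaller differences. *Cpox* was at 41.8, 41.7, and 41.5 FPKM with DMSO, 46.6, 47.5, and 47.0 FPKM with EpA, 17.5, 16.3, and 16.4 FPKM with fatostatin, and 22.8, 23.2, and 23.1 FPKM with both. *Cldnd1* was at 146 to 149 FPKM with DMSO and 64.0 to 65.9 FPKM with fatostatin. The log2 fold changes with fatostatin were -1.31 ± 0.03 (SE; limma adjusted p = 1.32e-10) for *Cpox* and -1.17 ± 0.02 (SE; limma adjusted p = 1.32e-10) for *Cldnd1*, against -2.45 for *Gpr15*. The FPKM of *Gpr15* as a share of that of *Cpox* was not constant: 14.6% to 16.9% with DMSO, 19.96% to 21.6% with EpA, 6.05% to 7.35% with fatostatin, and 8.45% to 14.5% with both.

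Values of *Ahr* and of 4 other known AhR target genes were set beside those of *Gpr15*. The repressor gene *Ahrr* was at 1.22, 1.35, and 1.21 FPKM with DMSO and 0.105, 0.141, and 0.133 FPKM with fatostatin (log2 fold change -2.59, limma adjusted p = 6.17e-08). *Ahrr*, which averaged under 1 FPKM over all libraries, and 3 further target genes were named after their values were seen: *Tiparp* fell by 0.89 on the log2 scale, *Cyp1a1* went from 2.63 to 2.95 FPKM in DMSO libraries to 0.126 to 0.213 FPKM, and *Cyp1b1* from 56 to 79 reads per library to 0, 0, and 4 reads. *Ahr* itself differed by 0.05 on the log2 scale (95% interval -0.0022 to 0.10, limma adjusted p = 0.207). EpA, with which *Gpr15* rose, went with a *Cyp1b1* level of 1.02 to 1.04 FPKM against 0.262 to 0.311 FPKM with DMSO. *Tiparp* was at 13.4 to 14.0 FPKM with EpA against 11.3 to 11.8 FPKM with DMSO, and *Ahrr* averaged 1.475 against 1.257 FPKM. *Cyp1a1* showed a log2 difference of 0.09 (limma adjusted p = 0.740). When EpA was added to fatostatin, *Cyp1a1* was lower, at 0.0507, 0, and 0.0350 FPKM (6, 0, and 4 reads), *Tiparp* rose by 0.12 on the log2 scale (limma adjusted p = 0.0493), and *Ahrr* and *Cyp1b1* did not pass the threshold (limma adjusted p = 0.257 and 0.133). The part of AhR activity in the *Gpr15* values was not tested.

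**Figure D2:**
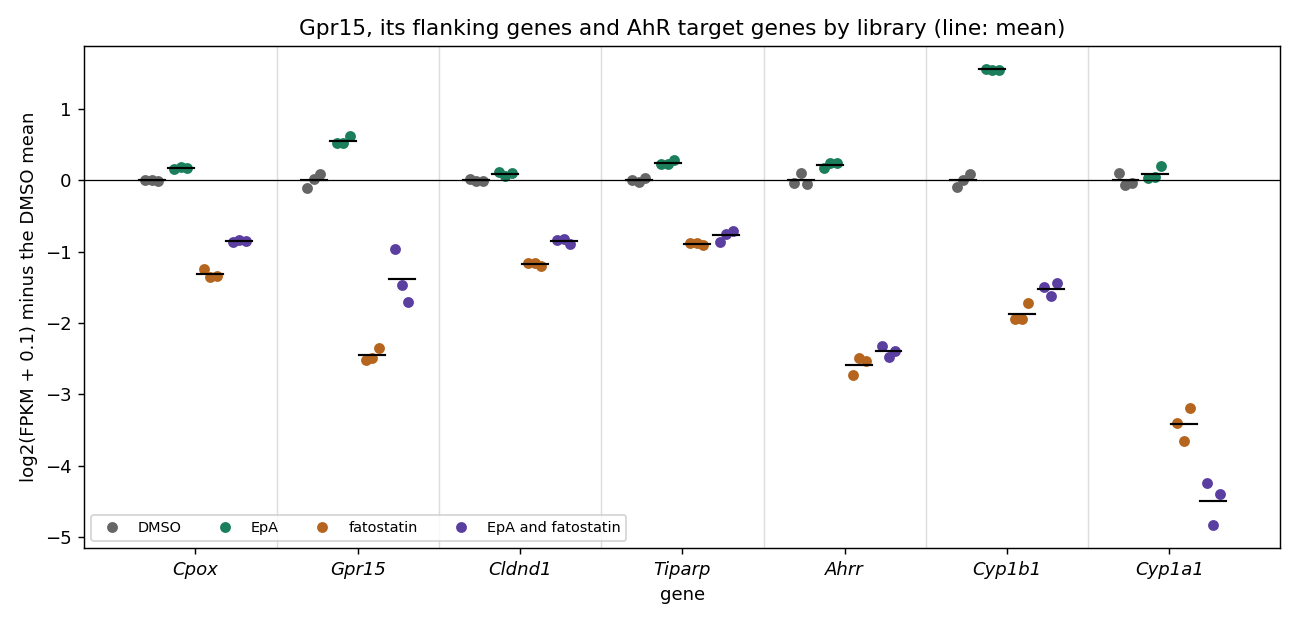
log2(FPKM + 0.1) of *Gpr15*, its flanking genes *Cpox* and *Cldnd1*, and 4 AhR target genes, each minus its own DMSO mean (vertical axis), by gene and group; points are libraries and lines are means of 3. All 7 genes lay below the DMSO libraries with fatostatin, and the mean difference for *Gpr15* was -2.45; libraries of *Cyp1a1* and *Cyp1b1* at or near 0 reads are set by the added 0.1.

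*Cxcr3*, the receptor for the interferon-induced ligands CXCL9 and CXCL10, fell most of the members with EpA. Its levels were 7.16, 7.47, and 6.44 FPKM with DMSO and 2.83, 2.80, and 2.16 FPKM with EpA. With fatostatin they were 7.64, 6.80, and 7.79 FPKM, and with both compounds 2.58, 2.54, and 2.57 FPKM. The 6 libraries with EpA all lay below the 6 without it. Against DMSO, EpA lowered the mean 2.71-fold (log2 fold change -1.41 ± 0.10, SE; limma adjusted p = 1.67e-06), and against fatostatin the addition of EpA lowered it 2.89-fold (log2 fold change -1.49 ± 0.10, SE; limma adjusted p = 8.16e-07). These fold changes share no library, but their SE and p-values rest on 1 estimate of the spread from all 12 libraries. Fatostatin itself left overlapping groups, with log2 differences of 0.08 (95% interval -0.14 to 0.29) against DMSO and -0.0067 (95% interval -0.22 to 0.20) when added to EpA.

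*Cxcr6*, the receptor for CXCL16, showed the same split by EpA. Levels were 6.18, 6.34, and 6.41 FPKM with DMSO, 3.33, 3.31, and 3.28 FPKM with EpA, 5.96, 4.98, and 6.06 FPKM with fatostatin, and 2.60, 2.34, and 2.65 FPKM with both. The 4 groups did not overlap, and both compounds together gave the lowest. EpA lowered the mean 1.91-fold against DMSO (log2 fold change -0.91 ± 0.07, SE; limma adjusted p = 4.21e-06) and 2.24-fold against fatostatin (log2 fold change -1.13 ± 0.07, SE; limma adjusted p = 7.21e-07). Fatostatin added to EpA lowered it further (log2 fold change -0.38 ± 0.07, SE; limma adjusted p = 0.00422), while fatostatin against DMSO gave -0.16 ± 0.07 (SE; limma adjusted p = 0.185). The difference between those 2 fatostatin effects missed the threshold (-0.22, limma adjusted p = 0.647).

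*Cxcr6* lies on chromosome 9 (chr9:123806475-123811760, plus strand) within *Fyco1*, an autophagosome transport gene on the opposite strand, with no shared exon. *Fyco1*, named after its values were seen, fell with EpA as well (log2 fold change -0.63, limma adjusted p = 5.97e-04), from 1.64, 1.72, and 1.88 FPKM to 0.984, 1.29, and 1.04 FPKM. *Cxcr3* on the X chromosome (chrX:101731535-101734269, minus strand) overlaps no other gene. The 6 CD4+ T cell markers also summed lower with EpA, at 384 to 392 FPKM against 443 to 450 FPKM with DMSO, and at 382 to 386 FPKM with both compounds against 443 to 455 FPKM with fatostatin. Of these, *Cd28* fell by 0.53 on the log2 scale and *Cd3e* by 0.33, while *Cd4* rose by 0.15. The list for NK and γδ T cells summed to 31.3 to 35.0 FPKM with DMSO, 22.5 to 23.8 FPKM with EpA, 26.5 to 27.6 FPKM with fatostatin, and 18.4 to 19.7 FPKM with both. Nearly all of this sum was *Trgv2*. The other genes, *Ncr1* and *Klrb1c*, lay near 0, at means of 0.0106 and 0.0143 FPKM with DMSO and 0.0422 and 0.0221 FPKM with EpA. *Trgv2* was called lower in all 4 comparisons, by 0.54 on the log2 scale with EpA and by 0.49 when EpA was added to fatostatin. *Cd8a*, a coreceptor gene of CD8 T cells, averaged 1.81 FPKM with DMSO and 0.802 FPKM with EpA (log2 fold change -1.08, limma adjusted p = 2.85e-05), and 1.52 FPKM with fatostatin and 0.491 FPKM with both (-1.46, limma adjusted p = 2.57e-06). The more abundant CD8 gene *Cd8b1* passed in no comparison, with means of 7.60 FPKM with DMSO, 7.47 FPKM with EpA, 7.64 FPKM with fatostatin, and 7.25 FPKM with both. Of the B cell genes, *Cd79a* averaged 0.791 FPKM with DMSO, 0.489 FPKM with EpA, 0.862 FPKM with fatostatin, and 0.869 FPKM with both. *Cd79b* averaged 6.18, 5.16, 6.92, and 5.50 FPKM in the same groups. These B cell genes, *Trgv2*, *Ncr1*, *Klrb1c*, *Cd8a*, and *Cd8b1* were named after their values were seen. The part of these markers in the *Cxcr3* and *Cxcr6* values was not tested.

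*Ccr7*, the lymph node–homing receptor, rose with each compound and was highest with both. Levels were 184.1, 183.9, and 184.0 FPKM with DMSO, 204.5, 209.8, and 208.8 FPKM with EpA, 195.2, 204.2, and 204.3 FPKM with fatostatin, and 243, 246, and 242 FPKM with both. No pair of neighboring groups overlapped in the order DMSO, fatostatin, EpA, both. The changes were small and precise: log2 fold changes of 0.17 with EpA (limma adjusted p = 5.62e-05), 0.13 with fatostatin (limma adjusted p = 9.77e-04), 0.23 for fatostatin added to EpA (limma adjusted p = 1.17e-05), and 0.28 for EpA added to fatostatin (limma adjusted p = 1.53e-06), each with an SE of 0.02. The last was 1.21-fold in mean FPKM. All 4 calls held under each of the 14 alternatives.

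*Ccr4* and *Ccr8*, the receptors most associated with type 2 helper T cells, were as abundant as *Ccr7* and moved little. *Ccr4* (ligands CCL17 and CCL22) lay between 182 and 188 FPKM in all libraries, and none of its 4 comparisons passed the threshold. Its log2 differences ran from -0.03 to -0.01, and the 95% interval for EpA against DMSO was -0.05 to 0.01. For EpA added to fatostatin, the adjusted p was 0.183 with limma on FPKM and 0.0461 after median-ratio scaling, at a log2 difference of -0.04.

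*Ccr8* (ligands CCL1 and, in mice, CCL8) was at 189, 196, and 194 FPKM with DMSO and at 168, 172, and 172 FPKM with EpA. It fell with EpA by 0.18 on the log2 scale (SE 0.02; limma adjusted p = 2.41e-04), or 1.13-fold in mean FPKM. With fatostatin it was at 178, 184, and 186 FPKM and with both compounds at 183, 174, and 179 FPKM, and these groups overlapped. Fatostatin against DMSO gave -0.08 with limma adjusted p = 0.0503, which ran from 0.0334 to 0.165 over 14 alternatives, so that this comparison stood at the threshold.

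*Ccr6*, the CCL20 receptor of Th17 cells, rose where both compounds were present. Levels were 1.66, 1.74, and 1.94 FPKM with DMSO, 1.67, 2.16, and 1.95 FPKM with EpA, 1.98, 1.98, and 2.14 FPKM with fatostatin, and 2.52, 3.25, and 2.59 FPKM with both. The first 3 groups lay close to each other, although each fatostatin library lay above each DMSO library. All libraries with both compounds lay above these 3 groups. *Ccr6* rose by 0.51 ± 0.11 on the log2 scale against EpA (SE; limma adjusted p = 0.00996) and by 0.43 ± 0.11 against fatostatin (SE; limma adjusted p = 0.0140), while EpA alone gave 0.10 (limma adjusted p = 0.546) and fatostatin alone 0.18 (limma adjusted p = 0.338). The difference of the EpA effects was 0.32 with an interval of -0.03 to 0.67 (limma adjusted p = 0.669). Without replicate 2 of both compounds the adjusted p against fatostatin was 0.0541, and with only the groups compared in the fit that against EpA was 0.0539.

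*Cxcr4*, the CXCL12 receptor, kept a narrow range of 35.8 to 41.9 FPKM. It was at 36.9, 35.8, and 37.8 FPKM with DMSO and at 41.9, 40.5, and 39.9 FPKM with both compounds. When fatostatin was added to EpA, the log2 fold change was 0.10 ± 0.03 (SE) with limma adjusted p = 0.0410, but 9 of 14 alternatives put the adjusted p at or above 0.05. No other comparison of *Cxcr4* passed the threshold.

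*Cxcr5*, the follicular receptor for CXCL13, rested on 6 to 30 reads per library. Its values ran from 0.0492 to 0.222 FPKM, the groups overlapped in all 4 comparisons, and a difference was not detectable at this depth. The interval for EpA against DMSO was -0.22 to 1.03 on the log2 scale. *Cxcr5* also shares 110 bases of exon with *Bcl9l* on the opposite strand.

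**Figure D3:**
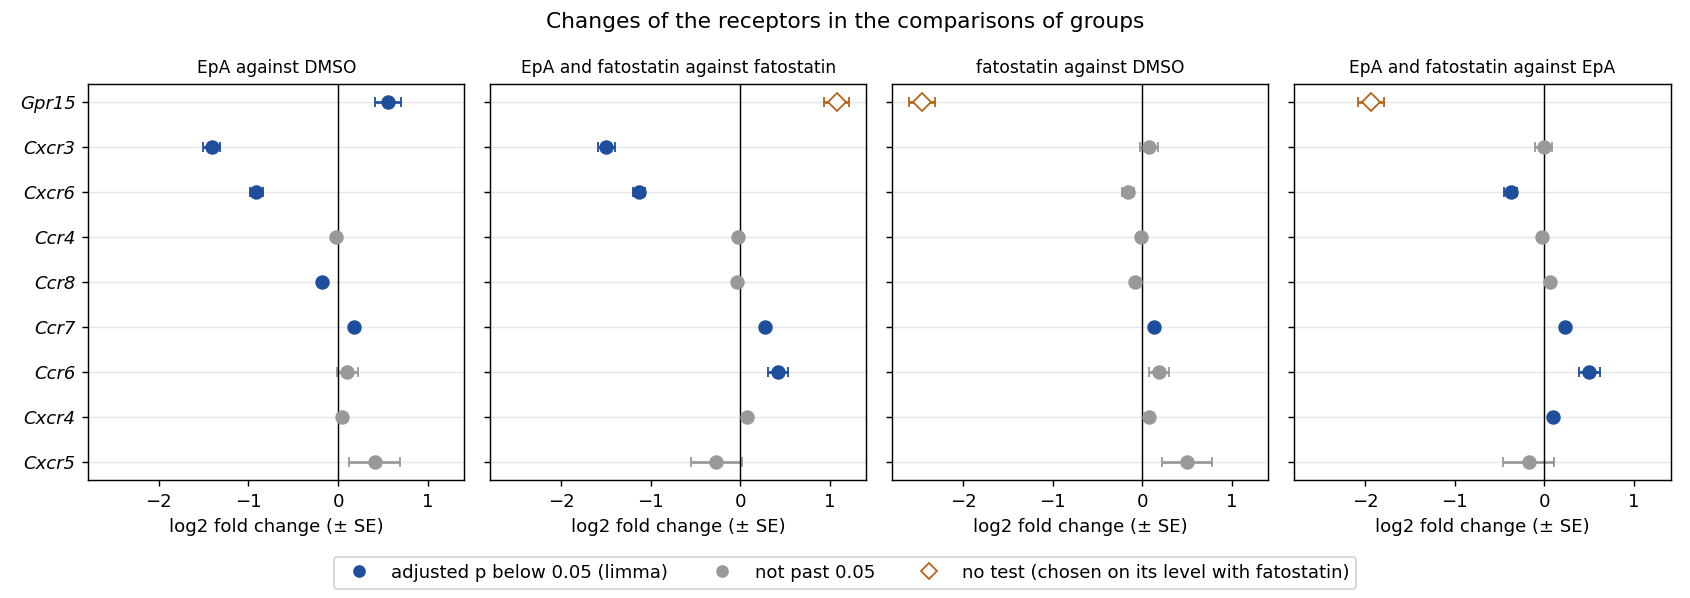
log2 fold change (horizontal axis) with its SE for each of the 9 genes in 4 comparisons of 3 libraries per group; filled blue points passed an adjusted p of 0.05, gray points did not, and open diamonds mark *Gpr15* where no test was made. *Cxcr3* and *Cxcr6* lay at -1.41 and -0.91 with EpA alone and at -1.49 and -1.13 with EpA added to fatostatin.

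Counted over the list, EpA against DMSO changed 5 of 9 members, with 2 higher (*Ccr7* and *Gpr15*) and 3 lower (*Ccr8*, *Cxcr3*, and *Cxcr6*). Among the 13733 genes tested, 14.3% were called higher and 13.1% lower in this comparison. Past 1.5-fold as well were 2 members, *Cxcr3* and *Cxcr6*, against 3.38% of all genes. The groups did not overlap for 6 of 9 members, against 42.4% of all genes. Without *Gpr15*, whose choice used the DMSO libraries, 1 of 8 was higher and 3 were lower, and the groups did not overlap for 5 of the 8. The median log2 difference was 0.05 over the members and 0.0023 over all genes tested.

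Of the 8 members other than *Gpr15*, EpA added to fatostatin changed 4, with *Ccr6* and *Ccr7* higher and *Cxcr3* and *Cxcr6* lower. Among all genes, 16.2% were called higher and 13.3% lower. Past 1.5-fold were 2 of the 8 (*Cxcr3* and *Cxcr6*) and 3.75% of all genes. The groups did not overlap for 6 of the 8 and for 41.4% of all genes, and the median log2 difference was -0.03 over the 8 and 0.01 over all genes.

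Of the same 8 members, fatostatin against DMSO changed 1 (*Ccr7*, higher). That comparison called 7.69% of all genes higher and 6.31% lower, and 1.86% past 1.5-fold, where none of the 8 stood. The groups did not overlap for 5 of the 8 and for 31.3% of all genes. Fatostatin added to EpA changed 4 of the 8, with *Ccr7*, *Ccr6*, and *Cxcr4* higher and *Cxcr6* lower, against 9.22% of all genes higher and 6.79% lower. None of the 8 was past 1.5-fold, where 1.99% of all genes stood, and 6 of the 8 did not overlap, against 33.3% of all genes.

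The effect of EpA did not pass the test for a difference with and without fatostatin for any of the 8 members (0 with limma on FPKM and 0 with voom on the recovered reads), and 0.0437% of all genes passed it. At an unadjusted p under 0.05 there were 2, *Ccr7* and *Ccr8*, with differences of 0.10 and 0.14 on the log2 scale, beside 7.89% of all genes. A missed threshold does not show that the effects were equal, and the intervals were 0.04 to 0.16 for *Ccr7* and -0.38 to 0.22 for *Cxcr3*.

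**Figure D4:**
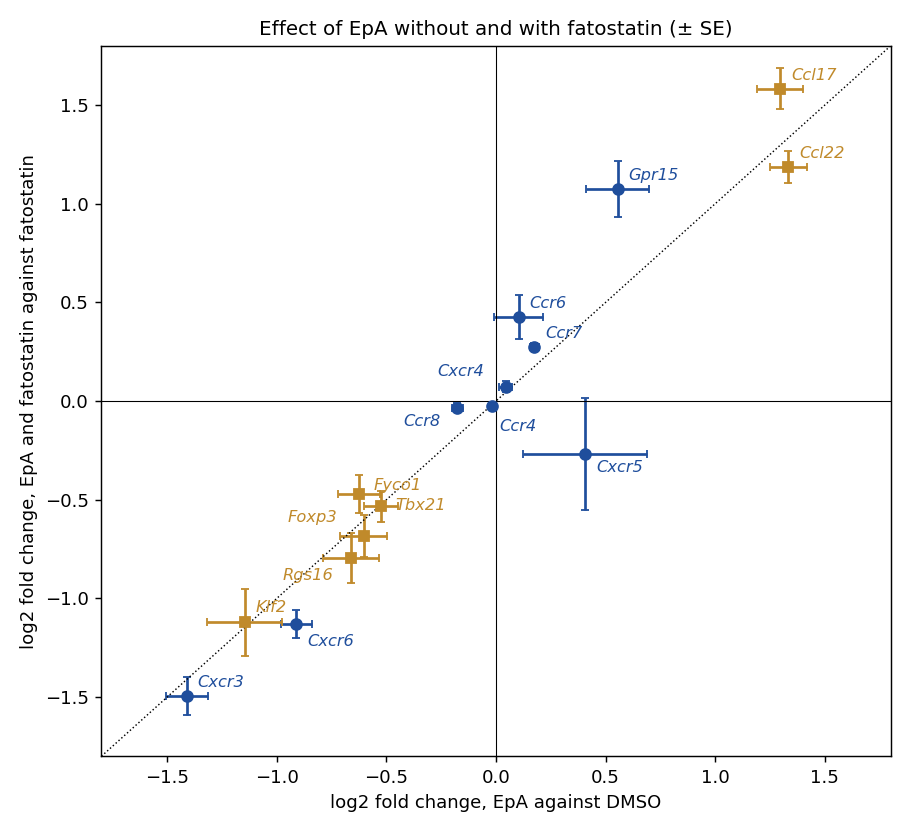
log2 fold change of EpA against DMSO (horizontal axis) and of EpA added to fatostatin against fatostatin (vertical axis), which share no library; circles are the 9 members, squares 7 other genes named in the text, bars are SE, and the dotted line marks equal effects. *Cxcr3*, *Cxcr6*, and *Klf2* lay at the lower left, *Ccl17*, *Ccl22*, and *Gpr15* at the upper right.

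Among 16 other chemokine receptor genes, 4 passed the filter on low values and 12 did not, and all 4 averaged less than 1 FPKM. The CX3CL1 receptor gene *Cx3cr1*, named after its values were seen, was at 0.873, 0.886, and 0.837 FPKM with DMSO and 0.396, 0.540, and 0.535 FPKM with EpA (log2 fold change -0.72, limma adjusted p = 0.00687), and it also fell when EpA was added to fatostatin (-1.08, limma adjusted p = 4.77e-04). *Xcr1*, named in the same way, fell with EpA from 0.141 to 0.253 FPKM to 0.0789 to 0.0903 FPKM (limma adjusted p = 0.0338). *Cxcr2* and *Ccrl2* passed in no comparison.

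Of 17 ligand genes of the members, 14 were in the table and 4 passed the filter. The pair of CCR4 ligands was called higher in all 4 comparisons, beside a receptor gene that was not: *Ccl22* went from 2.08, 2.26, and 2.24 FPKM with DMSO to 5.90, 5.76, and 5.37 FPKM with EpA (log2 fold change 1.33, limma adjusted p = 7.61e-07), and *Ccl17* from 0.904 to 1.12 FPKM to 2.35 to 3.03 FPKM (1.30, limma adjusted p = 4.84e-06). *Cxcl16*, the ligand of CXCR6, and the GPR15 ligand gene *Gpr15lg* passed in no comparison and averaged 0.219 and 0.131 FPKM.

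The signal transduction genes downstream of the receptors were counted in the same way. Of 36 tested genes of G protein signaling, 6 rose and 14 fell with EpA against DMSO, beside 14.3% and 13.1% of all genes, with a median log2 difference of -0.02, and 7 rose and 18 fell when EpA was added to fatostatin, beside 16.2% and 13.3%, with a median of -0.09, against 0.0023 and 0.012 over all genes. *Rgs16*, a brake on G protein signals, fell with EpA (-0.66, limma adjusted p = 0.00271) and rose with fatostatin (0.62, limma adjusted p = 0.00788). *Rgs10*, of the same family, fell with EpA by 0.42, as did the RAC activator *Tiam1* by 0.33. The β-arrestin gene *Arrb1*, whose product ends signaling of activated receptors, rose with EpA (0.28, limma adjusted p = 0.00107) and fell with fatostatin (-0.43, limma adjusted p = 1.04e-04). Fatostatin raised 6 and lowered 4 of the 36, beside 7.69% and 6.31% of all genes, among them the PI3K subunit *Pik3cg* (0.25) and *Rgs2* (0.25) upward. Added to EpA, it raised 6 and lowered 2, beside 9.22% and 6.79% of all genes, with the receptor kinase *Grk5* up by 0.31.

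Of 19 tested transcription factor genes tied to these receptors, 5 rose and 9 fell with EpA, beside 14.3% and 13.1% of all genes. *Klf2*, known for keeping naive-like trafficking receptors on, went from 3.18, 2.43, and 2.96 FPKM to 1.35, 1.02, and 1.34 FPKM (log2 fold change -1.15, limma adjusted p = 4.81e-04). *Tbx21*, which encodes T-bet, went from 3.91, 3.87, and 3.97 FPKM to 3.00, 2.54, and 2.55 FPKM (-0.52, limma adjusted p = 4.49e-04). *Foxp3*, the regulatory T cell factor, fell (-0.60, limma adjusted p = 0.00152), although its exons overlap those of other genes. Of the 4 listed markers of regulatory T cells 2 were lower with EpA (*Foxp3* and *Ikzf2*) and 2 higher, *Il2ra* from 686 to 702 FPKM with DMSO to 875 to 878 FPKM and *Ctla4* from 227 to 228 FPKM to 236 to 239 FPKM. Exons of *Ikzf2*, *Rgs16*, *Ahr*, *Lef1*, *Cxcl16*, *Cd3e*, *Cx3cr1*, and *Mpo* likewise overlap other transcripts on the opposite strand, so their reads carry the same uncertainty as those of *Gpr15*. *Klf2*, *Tbx21*, and *Foxp3* were called in the same direction when EpA was added to fatostatin, where 5 of the 19 rose and 8 fell, beside 16.2% and 13.3% of all genes.

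With fatostatin *Tbx21* rose (0.33, limma adjusted p = 0.0150), to 4.67, 5.05, and 5.11 FPKM. The TGF-β signal transducer *Smad3* rose by 0.54 and the Wnt pathway factor *Lef1* by 0.27, and *Runx3* fell by 0.26. In all, 5 of 19 rose and 3 fell with fatostatin against DMSO, beside 7.69% and 6.31% of all genes, and 6 rose and 4 fell when it was added to EpA, beside 9.22% and 6.79%. There, *Smad3* (0.50), *Tbx21* (0.32), *Lef1* (0.24), and *Runx3* (-0.31) kept their directions.

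The genes most like each member over the 12 libraries were ranked by Pearson's r of log2(FPKM + 0.1), among genes that averaged 1 FPKM or more. Such values describe a set of 4 groups and carry no test, since libraries of a group share their treatment. *Gpr15* was most like *Il10* (r = 0.985), *Cpox* (0.984), and *Tuba1a* (0.984, a gene with near-identical copies that may share reads). Mean *Il10* levels were 110.1, 136, 53.7, and 71.2 FPKM in the DMSO, EpA, fatostatin, and combined groups. *Cxcr3* was most like *Arhgef6* (0.996), *Il7r* (0.994), and *Adcy7* (0.989). *Il7r*, the IL-7 receptor of resting T cells, averaged 15.3 and 15.6 FPKM without EpA and 10.7 and 10.6 FPKM with it.

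*Ccr7* was most like *Abcc1* (0.992) and the NF-κB genes *Nfkbia* (0.987) and *Nfkb2* (0.986). *Nfkb2* averaged 25.4 FPKM with DMSO and 46.1 FPKM with both compounds. *Cxcr6* was most like *Rassf5* (0.987), *Hmgn2* (0.986), and *Stmn1* (0.983), and *Ccr6* like *Aoc2* (0.950), *Ccng2* (0.949), and *Slc41a1* (0.937). The leading genes were *Prr11* for *Ccr4* (0.935), *Wars1* for *Ccr8* (0.923), *Exoc5* for *Cxcr4* (0.953), and *E2f1* for *Cxcr5* (0.927).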

How the data were processed

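RNA-seq of 12 libraries (4 groups of 3) was analyzed. The authors used Trim Galore, HISAT2 (genome build GRCm38), and featureCounts, and deposited the result as FPKM values; annotation release and strand setting are not given in the sources used here. The table held 32352 lines for 32051 genes, and 301 repeated lines with the same values were dropped. With exon lengths of GENCODE vM21 (GRCm38), 98.3% to 98.4% of values were whole reads (tolerance 0.02) (36607240 to 44375809 reads per library). Fewer genes had 1 read (447 to 548 per library) than 2 (1032 to 1138), so both mates of a fragment may have been counted. Genes averaging 0.1 FPKM or more (13733) were tested on log2(FPKM + 0.1), a scale that understates changes of low genes, with limma 3.58.1 in R 4.3.3 (1 mean per group, 4 groups, empirical Bayes with trend, two-sided). Benjamini-Hochberg adjustment covered all genes tested, and genes were called at adjusted p below 0.05. *Gpr15* was counted as tested for EpA against DMSO only, although a test for EpA added to fatostatin had been planned. The method was checked on simulated data. Replicates were compared by chi-square per degree of freedom on reads divided by 2 (1.59 to 3.82 over 12 pairs), so none was a copy of another. Whether any came from repeat sequencing of 1 library was not tested. The members and lists were chosen with earlier results of these data known. All members were named. From the lists, up to 4 called genes with the largest change and an average of 1 FPKM or more were named per comparison, and the 3 most correlated genes per member; exceptions are stated, and 1 gene that this rule names is not reported here. Alternatives changed the pseudocount (1), filter (none, or 1 FPKM), scaling (TPM, median ratio), groups fitted, replicate block, tool (voom on recovered reads), and libraries, each left out in turn.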

Additional observations from a re-analysis of the deposited data

Results flagged for a closer look

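For the neighbors of *Gpr15*, the effect of EpA differed with and without fatostatin by an interaction term across all genes. The effect on *Cpox* was 0.29 larger on the log2 scale with fatostatin (0.2861, SE 0.04, limma adjusted p = 0.0372), and that on *Cldnd1* was 0.23 larger (0.2284, SE 0.03, limma adjusted p = 0.0372). The corresponding difference for *Gpr15* was 0.52 (SE 0.20) and is given without a test. Groups of 3 libraries are too small for the check of single outlying libraries.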

How the results depend on the processing

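Of the members' log2 fold changes recomputed under the alternatives, 638 kept their direction and their side of the threshold, 12 lost and 7 gained a call, 9 of *Gpr15* without a test moved by more than the SE, and 4 changed sign. The number of members called for fatostatin against DMSO was 2 rather than 1 with a pseudocount of 1, a minimum mean of 1 FPKM, median-ratio scaling, or voom on the recovered reads, and *Ccr8* was the added call. For fatostatin added to EpA it was 2 rather than 4 when only the groups compared were fitted, without *Ccr6* and *Cxcr4*. Leaving out 1 library at a time gave 4 to 5 members for EpA against DMSO, 1 to 2 for fatostatin against DMSO (2 without DMSO replicate 1 or fatostatin replicate 3), 3 to 4 for fatostatin added to EpA, 3 to 4 for EpA added to fatostatin, and 0 for the difference. The sign changed for uncalled values near 0: *Cxcr3* for fatostatin added to EpA was 0.0018 with TPM and ran from -0.13 to 0.0591 with 1 library left out (above 0 without EpA replicate 1 or 2), and the *Ccr4* difference ran from -0.013 to 0.000246 (above 0 without fatostatin replicate 1). The cause was not tested. Same-numbered libraries of different groups showed correlations of -0.0472 to 0.0744 over 18 pairs, none above 0.1, and 5 of 12 libraries correlated best with their own number, so the numbers were not taken to pair libraries. With a replicate block, 5, 1, 4, 4, and 0 members were called in these comparisons, as without it. *Gpr15* was counted in the first of them only. Groups of 3 libraries and, for *Cxcr5*, 6 to 30 reads limit what can be detected.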
